A study of Homo sapiens and Mus musculus with 20 samples.

Results

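The sites described here are peaks of the MCF10A N-C1 list that lay in exons of protein-coding genes. A peak was taken when its summit, the base of highest ChIP-seq signal, fell in an exon of a protein-coding transcript (GENCODE release 44 on GRCh37, the build called hg19) and was more than 2000 bp from any protein-coding transcript start. Of 62856 peaks in the list, 813 met this rule, 1.29% (95% interval 1.21 to 1.39). The summit lay in a coding exon at 74 of them and in an untranslated exon at 739. Of the untranslated sites, 731 lay in 3′ untranslated sequence and 8 in 5′ untranslated sequence. Since the rule left out bases within 2000 bp of a start, 5′ untranslated sequence there could not be counted.

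The study asked how Satb1, a chromatin architectural protein, finds and holds its sites in A/T-rich DNA. The cells were MCF10A, an epithelial line from human mammary gland without Satb1 of its own. Satb1 or a shortened form of it was expressed as a fusion to eGFP from a cumate-inducible lentiviral vector, in cells sorted through the same fluorescence gate, and bound DNA was recovered with a GFP antibody. There was 1 peak list per condition, so the intervals below cover counting error only, peaks are not replicates of a condition, and no p-value is given. The N-C1 form holds the N-terminal domain and the first CUT domain, the ∆HD form lacks the homeodomain, and FL is the full-length protein. In addition, cells with FL were treated for 2 h with camptothecin (CPT) or with ICRF-193, which inhibit topoisomerase I and topoisomerase II, and ATAC-seq was run on native MCF10A cells and on MCF10A cells expressing Satb1. The study gives a range of read numbers for its ChIP-seq libraries in general, but the depth of each single list is not given in the sources used here, and a site absent from a list was not shown to be unbound.

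CUT domains are DNA-binding domains that read A/T-rich sequence, and the N-terminal domain of Satb1 lets the protein assemble into oligomers. Coding exons are richer in G and C than the introns around them, since codon use constrains their sequence, whereas 3′ untranslated exons are usually long, form the last exon of the transcript and carry signals for mRNA stability and polyadenylation. Base composition therefore differs between these kinds of exon before any protein binds. The motif counted below is the 7-base consensus YTAWTAR, which reads as CTAATAA or CTAATAG or CTATTAA or TTAATAA on one strand or the other and is its own reverse complement.

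To show what these sites look like, the sequence around a motif match is given for 4 coding and 5 untranslated sites among the strongest that had a match wholly inside the exon. MSR1, the runner-up among the untranslated sites, is not shown. Strength is the fold enrichment of the ChIP signal over its local background, as the authors deposited it for each peak. Each run holds, of the matches inside the exon, the one nearest to the summit with 10 bases on either side, in hg19, written 5′ to 3′ on the strand of the gene, with the match in capitals.
HLTF coding exon, chr3:148793817-148793843, minus strand: ttttattaggTTAATAAtaatgaaatg
PICALM coding exon, chr11:85723322-85723348, minus strand: aatgaaggaaTTATTAAtttgttgggt
BIRC6 coding exon, chr2:32713739-32713765, plus strand: ttatataatgCTAATAGgatacctgtt
MED14 coding exon, chrX:40586035-40586061, minus strand: cttcgttcgaTTATTAGctttagtgaa
ACAP2 3′ untranslated exon, chr3:194997284-194997310, minus strand: ttattccttaTTATTAAtctgttagct
CADPS2 3′ untranslated exon, chr7:121959146-121959172, minus strand: tcaatgttaaCTAATAAttagtaatgt
CCDC80 3′ untranslated exon, chr3:112320180-112320206, minus strand: tttagtattaTTATTAAttctaataag
TTF2 3′ untranslated exon, chr1:117645362-117645388, plus strand: caatccaataCTAATAAtactattggt
NPY2R 3′ untranslated exon, chr4:156138097-156138123, plus strand: tattagtaaaTTATTAGaatccaatta
The first bases of the HLTF run and the last bases of the PICALM run lie in the neighbouring intron, and the other 7 runs lie wholly in the exon. At BIRC6 a CTAATAA outside the exon, 15 bp from the summit, was nearer than the printed match at 25 bp. With the intronic bases included, the 4 runs at coding sites held between 66.7% and 85.2% A/T over 27 bases, the highest being HLTF, and the 5 at untranslated sites between 74.1% and 88.9%. The match of MED14 was centred 1 bp from the summit and that of PICALM 27 bp from it. In the TTF2, CADPS2 and CCDC80 exons the printed match was 1 of 6, 6 and 4 matches in the 400 bp at the peak midpoint.

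Coding exons held fewer N-C1 peaks than their share of the genome, and untranslated exons nearly as many. Coding bases more than 2000 bp from a start made up 0.908% of the genome, and 0.118% of the peaks had their summit there, a ratio of 0.130. Untranslated bases made up 1.31% of the genome and held 1.18% of the peaks, a ratio of 0.900. The ratio was 0.972 for introns and 1.08 for intergenic sequence. Per megabase there were 2.85 peaks in coding exons, 19.8 in untranslated exons, 21.4 in introns and 23.8 between genes. These classes also differ in base composition, with 49.4% A/T in coding bases, 58.2% in untranslated bases, 59% in introns and 59.99% between genes. The consensus itself was less frequent in coding exons, at 0.242 matches per kb against 0.827 in untranslated exons, 0.821 in introns and 0.850 between genes. Set against the matches rather than the bases, there were 11.8 peaks per 1000 matches in coding exons, 23.9 in untranslated exons, 26 in introns and 28 between genes. On this measure the gap between coding exons and introns was smaller but remained. Peaks were classed here by their summit and matches by their own position. At 28 of the 74 coding sites all matches in the window lay outside the exon or across its edge, so this ratio is a rough one.

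Most coding peaks extended beyond the exon that held their summit. The exon that held the summit had a median length of 118 bp (quartiles 88 to 175 bp), whereas the peaks there had a median width of 332 bp, and only 7 of 74 coding peaks (9.46%, interval 3.89 to 18.5) lay wholly inside the exon. A coding base that met the rule, taken over MANE Select transcripts, which are 1 reference transcript per gene, lay in an exon with a median length of 187 bp. The summit was 20 bp or less from an exon edge at 39 of 74 coding sites (52.7%, interval 40.8 to 64.4), and 23.2% of the coding bases of MANE Select transcripts were that close to an edge. In the 66 internal exons the summit was nearer to the upstream edge, where splicing joins the exon to the one before it, at 42 sites (63.6%, interval 50.9 to 75.1). No coding site lay in a first exon, and 8 lay in a last exon. Coding sequence of first exons within 2000 bp of a start was left out by the rule, so its absence says nothing about binding there. The shares of first and last exons among the coding bases that met the rule were not computed.

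At coding sites the bases outside the exon were richer in A/T than those inside it. At the 62 coding sites with at least 20 bases of the 200 bp window on each side of the exon edge, the bases inside the exon held 62.5% ± 5.73 A/T (SD across sites, n = 62) and the bases outside it 75.2% ± 4.81. The mean difference was 12.8 percentage points (interval 10.8 to 14.7), and the bases outside were richer in A/T at 61 of 62 sites. The bases inside these exons were themselves richer in A/T than coding bases at large, of which 49.4% are A or T. The bases outside were likewise richer than intronic bases at large, of which 59% are. Coding and intronic bases thus differ in this direction without regard to these sites. The density of motif matches differed much less between the 2 sides. In the 400 bp windows of the 74 coding sites, 67 of 166 matches lay wholly inside the exon, 5.93 per kb of exon, and the other 99 lay outside or across the edge, 5.41 per kb. At 28 coding sites (37.8%, interval 26.8 to 49.9) all matches in the window were outside the exon or across its edge.

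**Figure D1:**
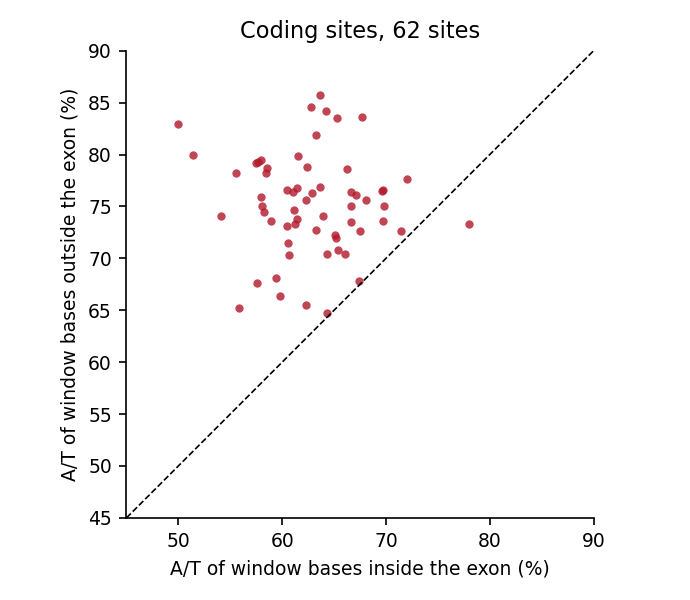
A/T content of the bases outside the exon (vertical axis, percent) against that of the bases inside it (horizontal axis, percent) in the 200 bp window of each of the 62 coding sites with at least 20 bases on each side. Each point is 1 site and the dashed line marks equal values. At 61 of the 62 sites the value outside the exon is the higher. The site with 41.2% inside and 75.2% outside, which is among these, lies beyond the left edge of the plot.

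HLTF, a DNA translocase of the SWI/SNF family that acts at stalled replication forks, had one of the strongest coding sites, on exon 3 of 25. Its fold enrichment was 22.2 in the N-C1 list, 19.8 in FL, 11.4 in ∆HD, 19.8 after CPT and 22.9 after ICRF-193. PICALM, a clathrin assembly protein, had 14.6 in N-C1, 9.24 in FL, 12.0 in ∆HD, 6.28 after CPT and 9.48 after ICRF-193. Both sites were therefore present in all 5 ChIP-seq lists.

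Of the 10 strongest coding sites, 8 were in all 5 lists, beside 25.7% of all N-C1 peaks. For all N-C1 peaks with a fold enrichment from 8.83 upward, the share was 91.7% in FL and 97.1% in ∆HD. It was 86.4% in the CPT list and 95.3% in the ICRF-193 list. Strong peaks of any class were thus mostly present in each list. SLC12A2, a sodium, potassium and chloride cotransporter, had 13.7 in N-C1, 9.23 in FL and 20.5 in ∆HD, with 3 matches in the window and none inside the exon. SLC35D2, a nucleotide sugar transporter, had 13.3 in N-C1, 8.68 in FL and 8.52 in ∆HD. BIRC6, a giant ubiquitin ligase of the inhibitor of apoptosis family, had 12.5, 8.42 and 8.02 in the same lists. The summit of the BIRC6 site lay 4 bp from the end of exon 42 of 74. SLC35G2 was an exception in its place and its sequence. Its site, with 10.0 in N-C1, lay in a last exon of 1446 bp with 95.2% of the peak inside it, and no match lay in its window, the nearest being 974 bp from the summit. NUBPL, an assembly factor of respiratory complex I, had 9.51 in N-C1 and 15.9 after ICRF-193, and 6 matches in the window, the most of any coding site, all outside an exon of 35 bp. MED14, a subunit of Mediator, had 9.69 in N-C1 and 6.13 in ∆HD but was absent from FL, and ACSL3, an acyl-CoA synthetase, had 9.17 in N-C1 and 6.51 in ∆HD and was absent from FL and from the CPT list. MAP4K5, a kinase of the MAP kinase cascades, had 8.99 in N-C1, 6.91 in FL and 13.3 in ∆HD, and 5 matches, of which 1 was in its 56 bp exon. SLC30A6 and PSTPIP2 also had 5 matches in the window.

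In the coding exons the consensus could occupy only some reading frames, since it ends in TAA or TAG, which are stop codons when read in frame. Of 66 matches wholly inside coding sequence at the coding sites, the first base was the first base of a codon at 27 (40.9%, interval 29.0 to 53.7) and the second base of a codon at 39 (59.1%, interval 46.3 to 71.1), and it was the third base at 0 (upper limit 5.44%). Over all 6930 matches in coding exons of MANE Select transcripts, the shares were 35.8%, 64.2% and 0.0144%, so the frames at the N-C1 sites differed from those of all matches by less than counting error. In the first of these frames the motif spells a leucine codon followed by a codon of isoleucine or leucine, as in MED14. In the second frame it spells an asparagine or isoleucine codon in its middle, as in HLTF, PICALM and BIRC6.

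The untranslated sites differed from the coding sites in their place, and most were far from any exon border. Of 739, 726 lay in the last exon of the transcript (98.2%, interval 97.0 to 99.1) and 638 peaks (86.3%, interval 83.6 to 88.7) lay wholly inside the exon. Nearly all 3′ untranslated bases of MANE Select transcripts that met the rule also lay in last exons, 31227481 of 31385480. The place in the last exon is thus not particular to the sites. The exon of a 3′ untranslated site had a median length of 3821 bp (quartiles 2241 to 6099 bp), and a 3′ untranslated base that met the rule lay in an exon with a median length of 3785 bp, so that the exons of the sites were about as long as those of the bases at large. The summit was 200 bp or less from the end of the exon, where transcripts are cleaved and polyadenylated, at 95 of 725 3′ untranslated sites in a last exon (13.1%, interval 10.7 to 15.8). The same distance held 9.84% of the 3′ untranslated bases in last exons of MANE Select transcripts. The exon belonged to a MANE Select transcript at 603 untranslated sites (81.6%) and at 72 of the 74 coding sites (97.3%), and at the others it was found in another transcript of the gene only.

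Untranslated sites resembled intronic peaks in sequence. They held 70.4% ± 4.06 A/T in the 200 bp at the midpoint (SD across peaks, n = 739), 62.7% ± 4.58 in flanks lying 1000 to 2000 bp away, and were richer in A/T than their own flanks at 93.4% of sites. Intronic N-C1 peaks held 70.7% ± 4.61, a difference of -0.26 percentage points (interval -0.56 to 0.04). Coding sites held 68.5% ± 4.36 (n = 74), lower than intronic peaks by 2.14 percentage points (interval of the difference -3.13 to -1.14) and lower than untranslated sites by 1.88 (interval -2.91 to -0.84). The flanks of coding sites held 62.8% ± 3.35, within 0.26 percentage points of those of intronic peaks, and 83.8% of coding sites (interval 73.4 to 91.3) exceeded their flanks. A narrower window separated the 2 kinds of exon further. In 100 bp the A/T content was 67.0% at coding sites and 71.6% at untranslated sites.

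The number of motif matches did not separate the classes. At least 1 match lay within the 400 bp window at 69 of 74 coding sites (93.2%, interval 84.9 to 97.8) and at 707 of 739 untranslated sites (95.7%, interval 93.9 to 97.0), against 95% of intronic and 94.3% of intergenic peaks. The mean number was 2.24 ± 1.24 at coding sites, 2.23 ± 1.18 at untranslated sites, 2.24 ± 1.24 at intronic peaks and 2.23 ± 1.31 at intergenic peaks. Where the classes did differ was in how close the nearest match was to the summit. It was centred 50 bp or less away at 63.5% of coding sites (interval 51.5 to 74.4), at 82.7% of untranslated sites (interval 79.8 to 85.3) and at 80.1% of intronic peaks. The match nearest to the summit read CTAATAA or its complement at 44.6% of coding and 38.2% of untranslated sites, and TTAATAA or its complement at 37.8% and 41.5%.

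The same question can be asked from the side of the sequence, by following every exonic match in hg19 to see whether an N-C1 peak covered it. In coding exons 174 of 6272 matches lay inside a peak (2.77%, interval 2.38 to 3.21), in untranslated exons 1629 of 30863 (5.28%, interval 5.03 to 5.53), in introns 5.84% and between genes 6.33%. The share rose with the number of matches within 200 bp in each of these classes. A coding match with no other match within 200 bp was covered in 0.446% of cases, a pair in 3.59%, a group of 3 in 16.5% and a group of 4 or more in 39.1%. For untranslated matches these shares were 1.04%, 6.45%, 22.8% and 55.1%, and for intronic matches 1.11%, 7.26%, 24.8% and 56.8%. At an equal number of matches the coding share was thus below the intronic share throughout (interval 29.1 to 49.9 against 56.1 to 57.5 for 4 or more). Matches of the same group can lie in the same peak and are not independent, so these intervals are too narrow.

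The base composition around a match moved with this difference. The 100 bases flanking a match, 50 on each side, held 60.02% A/T on average in coding exons, 65.6% in untranslated exons and 65.3% in introns. Among matches with 50 to 59 A/T bases in these 100, the covered share was 0.916% in coding exons (interval 0.560 to 1.41), 0.959% in untranslated exons and 0.900% in introns. With 60 to 69 A/T bases it was 3.82% in coding exons (interval 3.18 to 4.55), 4.54% in untranslated exons and 4.53% in introns. With 70 to 79 it was 7.57% (interval 5.30 to 10.4), 8.79% (interval 8.24 to 9.36) and 11.02% (interval 10.9 to 11.1), so in this class both kinds of exon lay below introns. Below 50 A/T bases, 0 of 498 coding matches and 0 of 1234 untranslated matches were covered, which allows shares of up to 0.738% and 0.298%, and 0.218% of intronic matches were. The part of base composition in the lower share of coding exons was not tested beyond these classes.

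**Figure D2:**
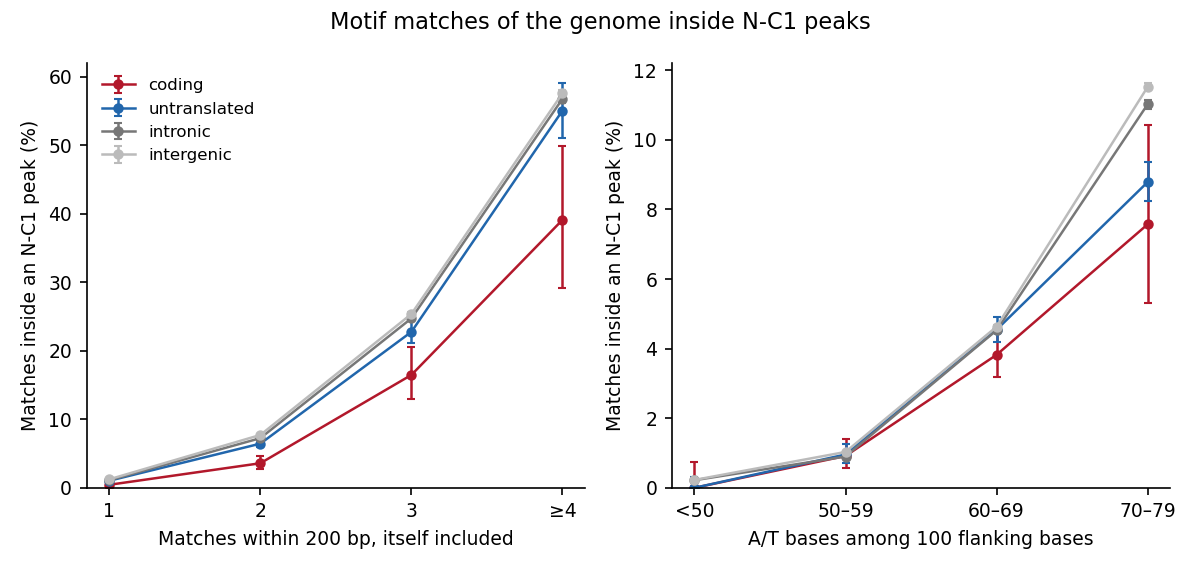
Share of motif matches that lay inside an N-C1 peak (vertical axes, percent), by the number of matches within 200 bp (left) and by the number of A/T bases among the 100 flanking bases (right), for coding exons, untranslated exons, introns and intergenic sequence. Bars are exact 95% intervals that treat matches as independent. With 4 or more matches the coding share was 39.1% and the other shares were between 55.1% and 57.6%.

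Exonic sites were weaker than the N-C1 list as a whole, and coding sites had the lowest median. The median fold enrichment was 5.20 at coding sites (interval 5.002 to 5.70, quartiles 4.66 to 6.88) and 5.70 at untranslated sites (interval 5.52 to 5.87, quartiles 4.79 to 8.30), against 6.0 at intronic peaks (interval 5.87 to 6.04) and 6.04 at intergenic peaks. Values below the median of the list, 6.001, were found at 49 of 74 coding sites (66.2%, interval 54.3 to 76.8) and at 54.4% of untranslated sites (interval 50.7 to 58.0). The range was 3.27 to 39.8 at coding sites and 2.83 to 54.1 at untranslated sites, so the 2 kinds of exon overlapped over nearly their whole range. Strength moved with the number of matches at untranslated sites, from a mean of 6.07 (interval 5.61 to 6.53) with 1 match to 7.18 with 2, 7.50 with 3, 10.9 with 4 and 17.6 (interval 10.7 to 24.5, n = 22) with 5 or more. Peaks outside exons showed the same rise. From 1 match to 5 or more, the mean went from 6.76 to 18.98 at intronic peaks and from 6.86 to 20.9 at intergenic peaks. At coding sites the means followed no such order. They were 6.31 with no match (n = 5), 5.05 with 1, 5.50 with 2, 9.44 with 3 (interval 6.09 to 12.8, median 6.56, n = 22), 5.81 with 4 and 7.17 with 5 or more, the last 2 from 4 sites each.

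**Figure D3:**
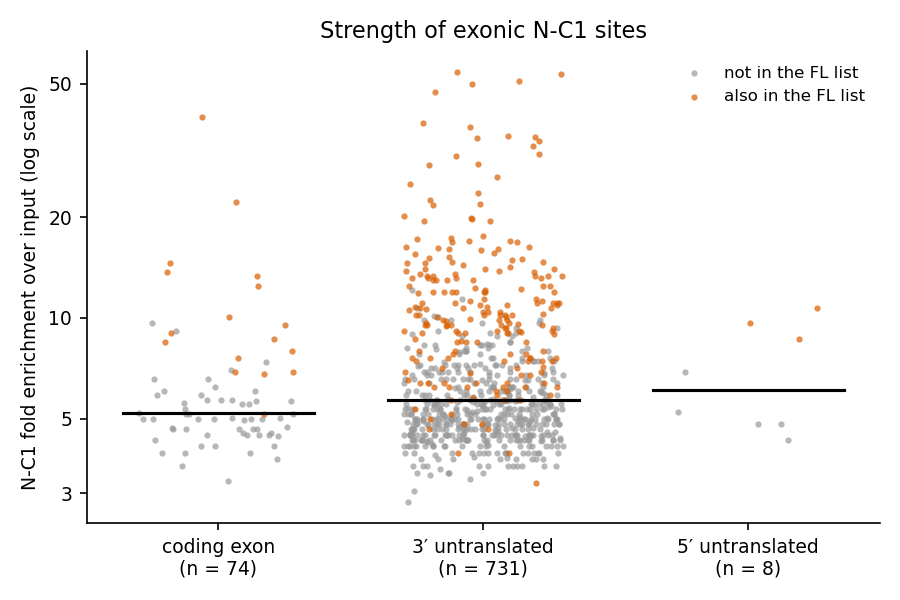
Fold enrichment of the 813 exonic sites in the N-C1 list (vertical axis, log scale) for coding, 3′ untranslated and 5′ untranslated exons, with 1 point per site, coloured by presence in the FL list. Horizontal lines are medians, 5.20 for coding and 5.70 for 3′ untranslated sites, and sites that were also in the FL list sit mostly in the upper part of each column.

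The strongest untranslated sites were all in 3′ untranslated exons and were present in all 5 ChIP-seq lists. Such presence was common among strong peaks. Of all N-C1 peaks with a fold enrichment from 8.83 upward, between 86.4% and 97.1% were in each of the other 4 lists. ACAP2, which stimulates GTP hydrolysis by the small G protein ARF6, had a fold enrichment of 54.1 in N-C1, 28.2 in FL, 37.1 in ∆HD, 22.9 after CPT and 31.9 after ICRF-193. MSR1, a macrophage scavenger receptor, had 53.6, 39.2, 14.8, 37.9 and 41.5 in the same order, and CADPS2, which primes dense-core vesicles for release, had 51.0, 35.7, 14.6, 36.1 and 42.1. In ACAP2 the ∆HD value was thus above the FL value, and in MSR1 and CADPS2 it was below. CCDC80 (49.9 in N-C1), TTF2 (47.2), a termination factor of RNA polymerase II, NPY2R (38.1), a receptor for neuropeptide Y, and LRRC58 (37.1) followed.

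ETFBKMT (35.0), a mitochondrial lysine methyltransferase, LGALS8 (34.6), a galectin, and SUSD5 (34.5) closed the list of the 10 strongest. SUSD5 had the lowest ∆HD value among the 10, 7.59, beside 27.5 in FL and 29.8 after ICRF-193. The most matches were held by MACC1, a regulator of the MET receptor gene, with 8 in the 400 bp window, all inside the exon, at a fold enrichment of 13.7 in N-C1. MACC1 had 22.1 in FL, 22.9 after CPT and 33.7 after ICRF-193 and no peak in the ∆HD list, so in these data its site was in 4 of the 5 lists. The next number, 6 matches, was shared by MSR1, CADPS2, TTF2 and 4 other sites.

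The share of sites found in the FL list was lower for untranslated exons than for introns. For coding exons the interval of the difference from introns just included 0, and coding sites differed from untranslated sites by -5.98 percentage points (interval -14.8 to 5.24). Of the 74 coding sites, 17 overlapped an FL peak by at least 1 bp (23%, interval 14.0 to 34.2), and of the 739 untranslated sites 214 did (29.0%, interval 25.7 to 32.4), against 34.6% of all N-C1 peaks and 33.7% of intronic peaks. The difference from intronic peaks was -10.7 percentage points for coding sites (interval -18.9 to 0.05) and -4.76 for untranslated sites (interval -7.97 to -1.33). In the ∆HD list there were 41 coding sites (55.4%, interval 43.4 to 67.0) and 484 untranslated sites (65.5%, interval 61.9 to 68.9), against 66.9% of all N-C1 peaks. Coding sites were below intronic peaks by 11.5 percentage points there (interval of the difference -22.9 to -0.73), and untranslated sites differed by -1.44 (interval -4.99 to 1.96).

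Among the treated cells, 22 coding sites (29.7%, interval 19.7 to 41.5) and 224 untranslated sites (30.3%, interval 27.0 to 33.8) were in the CPT list, against 35.4% of all N-C1 peaks. The ICRF-193 list held 30 coding sites (40.5%, interval 29.3 to 52.6) and 327 untranslated sites (44.2%, interval 40.6 to 47.9), against 50% of all N-C1 peaks. For coding sites the difference from intronic peaks had intervals that included 0 for both drugs, from -13.3 to 7.19 for CPT and from -18.4 to 3.46 for ICRF-193. For untranslated sites it was -3.45 for CPT (interval -6.71 to 0.01) and -4.23 for ICRF-193 (interval -7.83 to -0.57). Since these lists differ in length, from 22877 FL peaks to 50537 ∆HD peaks, the shares were not compared between lists.

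**Figure D4:**
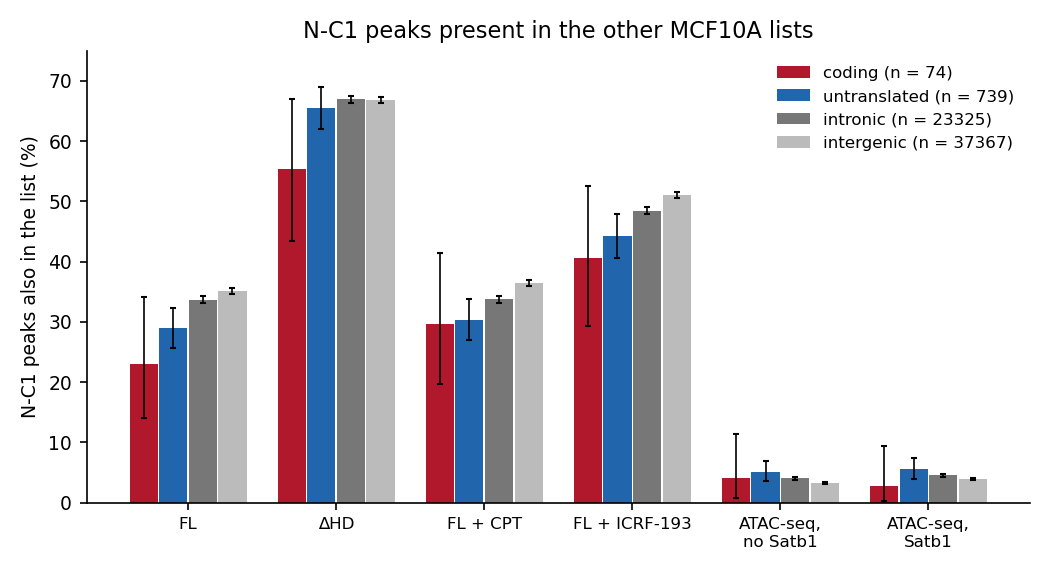
Share of N-C1 peaks that overlapped a peak of each of 6 other MCF10A lists by at least 1 bp (vertical axis, percent), for coding sites, untranslated sites, intronic peaks and intergenic peaks. Bars are shares with exact 95% intervals, and coding sites were lowest in the FL list (23%) and in the ∆HD list (55.4%).

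Presence in the other lists moved with strength in N-C1, so the shares were also taken within 4 bands of fold enrichment, cut at the quartiles of the whole N-C1 list. In the strongest band, from 8.83 upward, 9 of 11 coding sites (81.8%, interval 48.2 to 97.7) and 151 of 167 untranslated sites (90.4%, interval 84.9 to 94.4) were in FL, against 91.4% of intronic peaks. In the next band these were 7 of 14 coding sites and 47 of 170 untranslated sites (27.6%, interval 21.1 to 35.0), against 34.2% of intronic peaks. In the band after it, 1 of 25 coding and 9 of 179 untranslated sites (5.03%, interval 2.33 to 9.33) were in FL, against 8.99% of intronic peaks, and in the weakest 0 of 24 coding and 7 of 223 untranslated sites, against 3.24%. In ∆HD, 11 of 11 coding sites of the strongest band were present and 5 of 24 of the weakest (20.8%, interval 7.13 to 42.1), against 97.5% and 35.7% of intronic peaks. Within each of the 4 bands, the intronic value lay inside the interval of the coding sites for FL and for ∆HD.

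The sites shared with FL were stronger, held more motif matches and were slightly richer in A/T than the other exonic sites. This was not particular to exons. Over all N-C1 peaks, those in FL had a median fold enrichment of 10.6 against 5.18 for those not in FL. Their mean number of matches was 2.74 against 1.97, and their A/T content 71.7% against 70.4%. Among coding sites the median N-C1 fold enrichment was 8.99 for the 17 in FL and 5.002 for the 57 not in FL, and the mean number of matches was 3.29 (interval 2.67 to 3.92) against 1.93 (interval 1.66 to 2.20). Among untranslated sites it was 10.6 for 214 sites and 5.15 for 525, with 2.74 matches (interval 2.57 to 2.91) against 2.02 (interval 1.93 to 2.11). A/T content was 71.6% against 69.9% at untranslated sites, with intervals of 71.0 to 72.2 and 69.6 to 70.3, and 69.8% against 68.2% at coding sites, with intervals that overlapped. At the 14 coding sites found in all 5 lists (18.9%, against 25.7% of all N-C1 peaks), the median fold enrichment was 9.77 in N-C1, 7.53 in FL, 8.74 in ∆HD, 6.10 after CPT and 8.60 after ICRF-193. At the 163 untranslated sites in all 5 lists (22.1%), the medians were 11.9, 7.60, 9.99, 7.001 and 9.09 in the same order. Intronic peaks in all 5 lists had 12.46, 8.37, 10.85, 7.57 and 10.07.

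No peak of the other 4 ChIP-seq lists covered 28 coding sites (37.8%, interval 26.8 to 49.9) and 210 untranslated sites (28.4%, interval 25.2 to 31.8), beside 26.2% of intronic and 24.8% of intergenic peaks. The strongest of these in coding exons were BRWD1, a bromodomain protein, with 5.87 in N-C1, GCC2, a golgin, with 5.70, and DGKH, a diacylglycerol kinase, with 5.52. In untranslated exons they included PRRC2C with 7.43 and TNFSF4, the ligand of OX40, with 7.27. These values were below the strongest of the 4 bands. A further 13 coding and 182 untranslated sites (24.6%, interval 21.6 to 27.9) were in the ∆HD list and in no other, with a median N-C1 fold enrichment of 5.35 at the untranslated ones. For all N-C1 peaks this share was 20.8%, with the same median of 5.35. Only 1 coding site (1.35%) and 13 untranslated sites (1.76%, interval 0.940 to 2.99) were in FL and not in ∆HD, against 2.68% of all N-C1 peaks. The untranslated ones held 76.2% A/T on average and 3.38 matches, and all N-C1 peaks with this pattern 74.9% and 3.07.

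Few exonic sites lay in transposase-accessible chromatin. In native cells 3 coding sites (4.05%, interval 0.844 to 11.4) and 38 untranslated sites (5.14%, interval 3.66 to 6.99) overlapped an ATAC-seq peak, against 3.73% of all N-C1 peaks. In cells expressing Satb1 there were 2 coding sites (2.70%, interval 0.329 to 9.42) and 41 untranslated sites (5.55%, interval 4.01 to 7.45), against 4.35% of all N-C1 peaks. Untranslated sites exceeded intergenic peaks by 1.91 percentage points in native cells (interval 0.52 to 3.75) and by 1.60 in cells with Satb1 (interval 0.15 to 3.50), and their difference from intronic peaks had intervals that included 0. These differences were taken with an overlap of 1 bp only. When the summit had to lie inside the ATAC-seq peak, the untranslated share was 2.84% in native cells and 3.11% with Satb1, and with 50% of the N-C1 peak covered it was 3.11% and 2.98%. The 3 strongest exonic sites in both ATAC-seq lists were all in 3′ untranslated exons, which held 731 of the 813 exonic sites. GLUL, glutamine synthetase, had an N-C1 fold enrichment of 23.5 and ATAC-seq values of 12.4 in native cells and 2.45 with Satb1. CLEC12B, a C-type lectin receptor, had 17.0 in N-C1 and 5.22 and 3.8 in the 2 ATAC-seq lists, and SBF2, a myotubularin-related protein, had 16.2, 5.43 and 6.02. ATAC-seq values of the 2 lists were not compared, since their depth is unknown.

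The 813 sites fell in 738 genes, so most genes had a single site. There were 73 genes with a coding site and 676 with an untranslated site, 11 of which had both, and 65 genes had 2 or more sites. DYNC2H1, a heavy chain of the motor that returns cargo along cilia, was the only gene with 2 coding sites and was named after its values were seen. PTCHD4, of the Patched family, had 4 sites, 3 of them in a last exon of 23264 bp and 1 in a last exon of another transcript, with fold enrichments of 12.1, 10.4, 5.70 and 5.35. The first 2 were in all 5 ChIP-seq lists and the others in N-C1 and ∆HD only.

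Of the genes with 3 sites, FLRT2, a cell adhesion protein with leucine-rich repeats, carried them in a last exon of 33290 bp, with 13.0, 8.99 and 6.40 in N-C1. BRWD1 had 11.1 and 7.43 at untranslated sites, both in all 5 lists, beside its coding site named above. GABRA2, a subunit of the GABA-A receptor, had 7.78, 6.74 and 5.52, none of them in FL and all in ∆HD. LHX9, a LIM homeodomain factor, had 8.99, 5.87 and 4.13 within 1 last exon, of which the strongest was in all 5 lists and the weakest in N-C1 alone.

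By gene family, the share of untranslated sites had an interval that included the family's share of untranslated bases in each of the 4 families given next. Zinc finger genes had 27 untranslated sites in 25 genes, 3.65% of that class (interval 2.42 to 5.27), beside 4.48% of the untranslated bases that met the rule, with ZNF280D (10.7), ZNF41 (10.2) and ZBTB38 (9.85) the strongest. Olfactory receptor genes had 8, or 1.08% (interval 0.468 to 2.12), beside 1.05% of the bases, led by OR2M3 (9.62), OR52A5 (7.08) and OR8J3 (6.91). Leucine-rich repeat genes, grouped by symbol only (SLITRK, LRRTM, LRRC, LRRN, LRFN, FLRT or LINGO), had 9, or 1.22% (interval 0.558 to 2.30), beside 0.628%. All 9 were in the ∆HD list, beside 66.9% of all N-C1 peaks, LRRC58, SLITRK4 (13.3) and FLRT2 being the strongest. Protocadherins had 5, or 0.677% (interval 0.220 to 1.57), beside 0.326%, with PCDH9 (21.7), PCDH15 (8.95) and PCDH10 (6.91) leading.

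Solute carrier genes had 5 of the 74 coding sites (6.76%, interval 2.23 to 15.1) beside 1.87% of coding bases, SLC12A2 and SLC35D2 being the strongest, and 9 of the 739 untranslated sites (1.22%, interval 0.558 to 2.30) beside 2.17% of untranslated bases, with SLC7A14 (11.4) the strongest. Of the 5 coding sites 4 were in FL, beside 34.6% of all N-C1 peaks and 23% of coding sites. Among these 4, SLC12A2, SLC35D2 and SLC35G2 had N-C1 fold enrichments above 8.83, a band in which 91.7% of all N-C1 peaks were in FL. Solute carriers were the only 1 of the 10 families whose coding share had an interval that excluded its share of bases, and 20 such shares were computed. Axonemal dyneins had 2 coding sites (2.70%, interval 0.329 to 9.42) beside 0.624% of coding bases, in DNAH7 (5.18) and DNAH14 (4.52), neither of them in another ChIP-seq list. They had 1 untranslated site, in DNAH14 (3.61), 0.135% of that class (interval 0.00343 to 0.752) beside 0.0158% of the bases. Collagens had 1 coding site, in COL3A1 (5.18), beside 0.663% of coding bases, and 1 untranslated site, in COL25A1 (9.69), beside 0.237% of untranslated bases. No site was found in mucins, keratins or taste and trace amine receptors, each of which held less than 0.5% of the coding and of the untranslated bases, so that fewer than 1 site of either class would match their share.

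SATB1 itself was examined because exon sequence of an expressed cDNA could appear as peaks over the exons of its gene. No summit of any of the 5 ChIP-seq lists lay in an exon of SATB1. The gene held 5 N-C1 peaks, 5 in ∆HD, 2 in FL, 1 after CPT and 3 after ICRF-193, all in introns, the strongest with 14.0 in N-C1.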

How the data were processed

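Peak lists of MCF10A cells were used: 5 from ChIP-seq and 2 from ATAC-seq, each from 1 sample. The authors trimmed reads with cutadapt, aligned them to hg19 with Bowtie2 and called peaks with MACS2, for ChIP-seq against input. The deposited fold enrichment is a ratio over the local background that the authors computed per peak. The deposited −log10 p-value and q-value and the deposited score are also theirs, as is the summit offset. Whether duplicates were pooled before calling is not given in the sources used here. Columns were used as deposited, and lists of the mouse line were not used here. The deposited N-C1 list, with 62856 peaks, is longer than the ∆HD list, with 50537. The study reports fewer sites than this for N-C1, and fewer for N-C1 than for ∆HD. Why the deposited lists differ from these numbers is not given in the sources used here.

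Exons came from protein-coding transcripts of GENCODE release 44, lifted to GRCh37. A summit in a coding segment of any transcript was called coding, otherwise untranslated, and the gene was taken from the MANE Select transcript where it had the exon. Motifs were exact matches in 400 bp and A/T content was taken in 200 bp, both at the peak midpoint. Overlap meant 1 bp or more. Shares carry exact Clopper-Pearson 95% intervals, differences of shares Newcombe intervals, means normal intervals across peaks, and medians order-statistic intervals. They are not adjusted for the number of comparisons, and neither neighbouring peaks nor neighbouring matches are independent. Medians of exon length over bases weight each exon by its bases that met the rule.

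Named sites were the 10 strongest of each class, those with most motifs, the 5 genes with most sites and up to 3 per family. The 3 strongest of each class absent from the other ChIP-seq lists were also named, as were the 3 strongest exonic sites present in both ATAC-seq lists. The sites and families were chosen with earlier results of these data known. The functions for overlap, motif, annotation and reading frame were tested on simulated data. Alternatives covered the distance to starts, thresholds, annotation, windows, consensus and overlap rule. Sequence was read with pysam 0.24.0 and samtools 1.23.1, intervals were computed with scipy 1.17.1 in Python 3.11.15 with pandas 2.3.3 and numpy 2.4.6, bedtools 2.31.1 served in the simulated test, and figures were drawn with matplotlib 3.10.9. Sequences from chromosome 8 were not shown, and some named sites are not reported here.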

Additional observations from a re-analysis of the deposited data

How the results depend on the processing

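No paired analysis was possible because there was 1 list per condition and no test. Of 89 alternative values for 22 results, 64 stayed within the interval of the reported value, or within 1.5 times a count, and 25 did not. At a fold enrichment of at least 5, 49 coding sites remained, and the shares in FL, ∆HD, the CPT list and the ICRF-193 list were 34.7%, 73.5%, 42.9% and 57.1% for coding sites and 40.7%, 78.6%, 40.5% and 58.4% for untranslated sites. Leaving out weak peaks raised each share, and in this respect the shares describe the list at its deposited threshold. With a summit more than 20 bp inside the exon, an alternative added after the data were seen, 35 coding sites were left, with 67.0% A/T. In 150 bp the share with a motif was 74.3% for coding and 86.3% for untranslated sites, and with CTAATAR in place of YTAWTAR it was 71.6% and 62.9%. In 100 bp the A/T content was 67.0% and 71.6%, and in 400 bp 68.9% at untranslated sites. With the summit inside the ATAC-seq peak, 2.84% of untranslated sites were in accessible chromatin of native cells and 3.11% with Satb1, and with 50% of the peak covered 3.11% and 2.98%. With CTAATAR the share of matches inside peaks was 3.94% for coding exons, 6.67% for untranslated exons and 6.14% for both. The unknown depth of each list limits every share of presence, and with 74 coding sites a difference from introns of about 10 percentage points was near the limit of what could be seen.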
